A study of Rattus norvegicus with 8 samples.

Results

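The genes described here are cell cycle and proliferation genes, a list of 40 rat genes named for their known roles in the cycle. Of these, 36 were matched through the RefSeq accession of a probe, out of 12148 genes that could be tested on the arrays. Mki67, Top2a, Mcm5 and Bub1b had no matched probe and were not analysed here. All 36 matched genes lay well above background on all 8 arrays, so none of them passed the filter on dim probes through 1 group alone. By role they comprised 7 cyclins, kinases and E2F factors of G1 and of entry into S phase, 3 inhibitors of cyclin-dependent kinases, 6 genes of replication licensing and the replication clamp, 2 genes of nucleotide supply, 11 regulators of G2 and mitosis, 2 genes of the checkpoint and kinetochore and 5 genes of the spindle and cytokinesis.

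The study compared 3 forms of a human protein, each given at 100 ng/ml for 5 days to cultures made from the dorsal root ganglia of Wistar rat pups aged 0 to 5 days. The forms were the P61S/R100E double mutant (3 arrays), the P61S single mutant (3 arrays) and the wild type (2 arrays). All cultures were kept without serum and with 5-fluoro-2'-deoxyuridine and uridine, so every group shared these agents, and cells of male and female pups were pooled. A culture without the protein was not analysed here. The labels do not state whether replicates were separate cultures, so the p-values measure only the spread between these samples, which may be technical.

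A dorsal root ganglion culture holds sensory neurons, which have left the cell cycle, beside Schwann cells, satellite glia and fibroblasts, which can divide. Cells pass through the cycle by successive waves of expression. D and E cyclins with E2F factors open S phase, and MCM proteins and PCNA take part in copying the DNA. Cyclin B with Cdk1, the polo and aurora kinases and the spindle motors carry out mitosis. The active form of 5-fluoro-2'-deoxyuridine inhibits thymidylate synthase, and the drug is used in such cultures to hold back dividing non-neuronal cells. The arrays measured RNA from all cells of a culture, so fewer cycling cells and less RNA per cell cannot be told apart in any value below.

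Arrays 1 and 3 of the P61S group were far closer to each other than any other pair of arrays. Over bright probes with 2 spots, the robust SD of their log2 differences was 0.0449, below the 0.0562 calculated from the noise between spots, and the other 27 pairs ran from 0.12 to 0.265. Over probes with 10 spots it was 0.0335, above the 0.0255 calculated from spot noise, and the other pairs ran from 0.101 to 0.2. The probes with 2 spots thus show no difference beyond spot noise and those with 10 spots show a small one, so whether the arrays are repeats of 1 sample is not settled. They were averaged and counted as 1 sample, which left 3 P61S/R100E, 2 P61S and 2 wild type samples. Wild type replicate 2 stood apart from the rest, at 0.225 from wild type replicate 1.

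**Figure D1:**
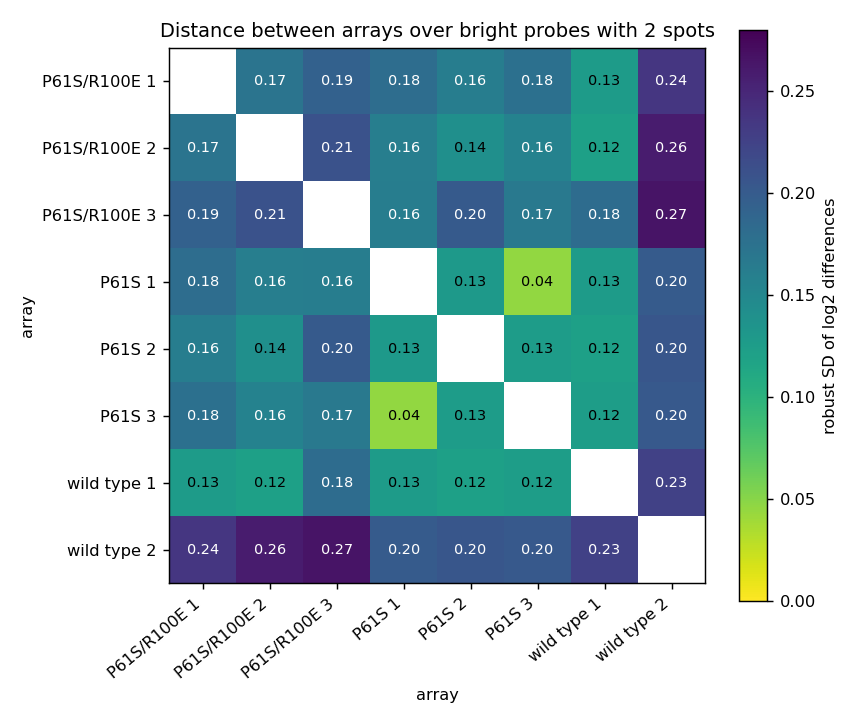
Distance between each pair of the 8 arrays, as the robust SD of log2 differences over bright probes with 2 spots (colour and printed value). P61S arrays 1 and 3 form the only pair near 0.04, and wild type replicate 2 lies farthest from the others.

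The 75th percentile of the processed signal ran from 3267 to 5269 over the arrays, the scanner rated 78.7% to 88.8% of the spots as well above background, and it marked 0 as saturated. Values are log2 signals relative to that percentile of the array, so they can be compared between samples for 1 gene but not between genes. Of the pan-neuronal markers, 9 of 9 measured genes were well above background on all arrays (Rbfox3 was not matched). Schwann cell markers (10 of 10), fibroblast markers (8 of 8) and satellite glia markers (5 of 6) were above background on all arrays too, as were 7 of 8 macrophage markers and 5 of 8 endothelial and mural markers. Of all 30367 probes, 21657 had this rating on all arrays, so these counts alone do not show which cell types were present. All 8 arrays lay on 1 slide, where wild type arrays alone filled column 4, so that column and the wild type group cannot be told apart. P61S arrays 1 and 3 alone filled column 1, while P61S replicate 2 lay in column 2 beside P61S/R100E replicate 2. Any difference of P61S replicate 2 from P61S arrays 1 and 3 therefore cannot be told apart from slide column.

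Across the 3 groups no cell cycle gene passed the test. In limma's test with Benjamini-Hochberg adjustment over 23585 probes, 0 of 36 genes had an adjusted p under 0.05 in any comparison, where 0% of all probes passed. At an unadjusted p under 0.05 there were likewise 0 of 36 genes in each comparison, against 2.47% of probes for P61S/R100E with P61S, 3.53% for P61S/R100E with wild type and 1.1% for P61S with wild type. By direction, the probes comprised 0.772% higher and 1.7% lower in P61S/R100E than in P61S, 1.18% higher and 2.35% lower in P61S/R100E than in wild type, and 0.598% higher and 0.5% lower in P61S than in wild type. The median SE of a member's log2 change was 0.151 in both P61S/R100E comparisons and 0.166 for P61S with wild type. The 95% intervals lay within 1 log2 unit of no change for 35 of 36 genes in P61S/R100E minus P61S, 31 in P61S/R100E minus wild type and 32 in P61S minus wild type. The wider ones belonged to Ccnd2 throughout and to Ccnd1, Ccne1, Mcm6, Cenpf or Cdkn2c in some.

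The members' median log2 change was 0.081 for P61S/R100E minus P61S, with 28 of 36 above 0, -0.0074 for P61S/R100E minus wild type, with 16 of 36 above 0, and -0.11 for P61S minus wild type, with 6 of 36 above 0. Over all genes the medians were -0.018 for P61S/R100E minus P61S, -0.029 for P61S/R100E minus wild type and -0.017 for P61S minus wild type. P61S replicate 2 decided the direction of both P61S medians. Without it, P61S/R100E minus P61S had a median of -0.085 with 6 of 36 above 0, and P61S minus wild type had 0.034 with 24 of 36 above 0. With all 8 arrays as separate samples, the medians were 0.022 (22 of 36 above 0) for P61S/R100E minus P61S and -0.051 (9 of 36) for P61S minus wild type. With the slide column as a linear term they were 0.17 for P61S/R100E minus P61S, -0.12 for P61S/R100E minus wild type and -0.28 for P61S minus wild type. Both wild type samples lay in column 4, so the slope of that term came only from the P61S and P61S/R100E samples. These medians with the column term therefore depend on P61S replicate 2 as well. The comparisons share samples, so their values are not independent.

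**Figure D2:**
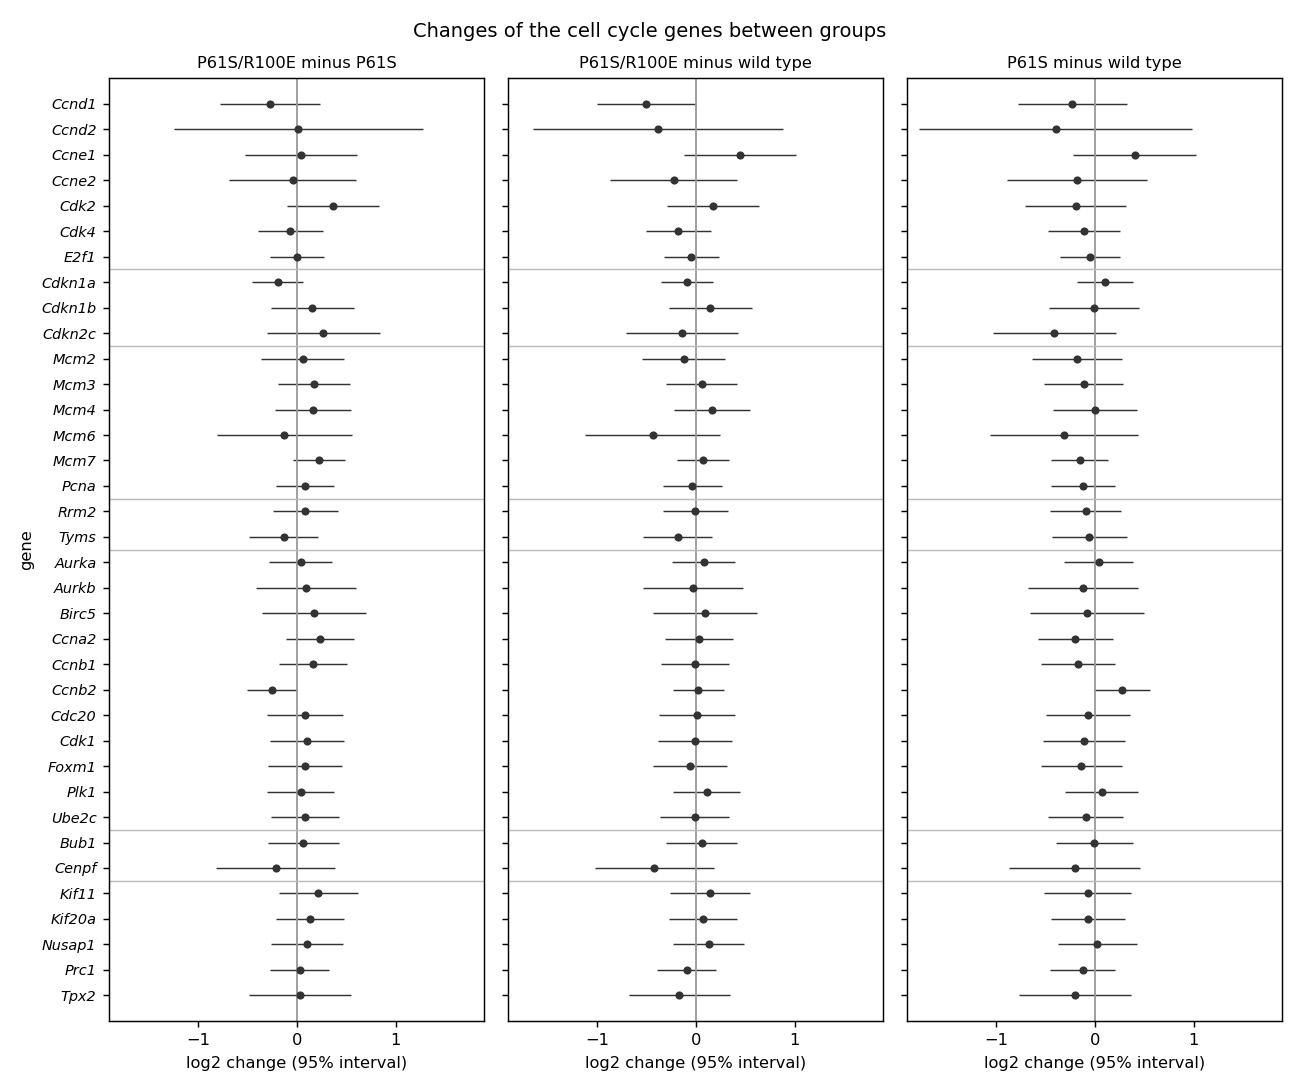
Log2 change of each of the 36 genes (points) with its 95% interval (lines) for P61S/R100E minus P61S, P61S/R100E minus wild type and P61S minus wild type, grouped by role from G1 genes at the top to spindle genes at the bottom. No gene passed the adjusted test, and the widest intervals are those of Ccnd2.

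Groups did not overlap for 5 of 36 genes between P61S/R100E and P61S, against 18.3% of probes. Cdk2 and Mcm7 were higher and Ccnb2, Ccnd1 and Cdkn1a lower in P61S/R100E. Between P61S/R100E and wild type they did not overlap for 4 genes (15.1% of probes), with Ccnd1, Tyms, Cenpf and Prc1 lower in P61S/R100E. Between P61S and wild type the number was 6 (21% of probes), with Ccnb2 and Cdkn1a higher and Ccna2, Cdkn2c, Mcm7 and Cenpf lower in P61S. As shares of the members these are 13.9% between P61S/R100E and P61S, 11.1% between P61S/R100E and wild type and 16.7% between P61S and wild type, each below the share of probes. These counts use the brightest probe of a gene. The dimmer probes of Ccna2, Cdkn1a, Cenpf and Prc1 overlapped between the groups for which these genes are named.

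Among the D cyclins, which bind Cdk4 and Cdk6 to start the passage through G1, Ccnd1 had values of 0.45, 0.27 and 0.30 in P61S/R100E samples, 0.63 and 0.59 in P61S samples, and 0.50 and 1.18 in wild type samples. All 3 P61S/R100E samples lay below the other 4, and wild type replicate 2 lay far above its group's other sample. The log2 change of Ccnd1 in P61S/R100E minus wild type was -0.50 (SE 0.21, unadjusted p = 0.0508, limma, adjusted p = 0.859), or 1.41-fold lower, and it was -0.27 (SE 0.21) against P61S. Ccnd1 averaged 0.34 ± 0.09 (SD, n = 3) in P61S/R100E, 0.61 ± 0.03 (n = 2) in P61S and 0.84 ± 0.48 (n = 2) in wild type.

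Ccnd2, another D cyclin, had the widest range of the 36 genes, 1.46 log2 units. Its values were 0.30, 0.26 and -1.12 in P61S/R100E samples, -0.73 and 0.33 in P61S samples, and 0.05 and 0.34 in wild type samples. The low values fell in P61S/R100E replicate 3 and in the averaged P61S sample, whose arrays both read -0.73, and the other 5 samples lay close together. The groups overlapped fully, and the change was 0.01 (SE 0.52) for P61S/R100E minus P61S and -0.40 (SE 0.57) for P61S minus wild type.

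Ccne1, the E cyclin that activates Cdk2 at the start of S phase, had 0.30, 0.22 and 0.46 in P61S/R100E samples, 0.45 and 0.11 in P61S samples, and 0.23 and -0.48 in wild type samples. Only wild type replicate 2 was low, and P61S/R100E minus wild type was 0.45 (SE 0.23, 95% interval -0.12 to 1.02). Cdk2 itself had -1.83, -2.23 and -2.11 in P61S/R100E samples, -2.34 and -2.51 in P61S samples, and -1.999 and -2.46 in wild type samples. Its P61S samples lay below all P61S/R100E samples, by 0.37 on average (SE 0.19, limma, unadjusted p = 0.105), and the wild type samples spanned both groups.

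Cdk4, the kinase of the D cyclins, had a range of 0.41 log2 units over the 7 samples, and E2f1, a transcription factor of S phase genes, one of 0.20. Changes of Cdk4 lay between -0.18 and -0.07 (SE 0.13 to 0.15) and those of E2f1 between -0.05 and 0.0019 (SE 0.11 to 0.12). A dimmer E2f1 probe disagreed, with values from -4.04 in P61S/R100E replicate 3 to -2.996 in wild type replicate 2 and changes of -0.21 (SE 0.27) for P61S/R100E minus P61S, -0.44 (SE 0.27) for P61S/R100E minus wild type and -0.22 (SE 0.30) for P61S minus wild type. Ccne2, an E cyclin with low signals, ranged from -5.42 in P61S/R100E replicate 3 to -4.53 in wild type replicate 2.

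The inhibitors of cyclin-dependent kinases also gave no call. Cdkn1a, which encodes p21 and is induced by p53, had 4.73, 4.87 and 4.81 in P61S/R100E samples, 4.97 and 5.02 in P61S samples, and 4.97 and 4.81 in wild type samples. The P61S samples lay above all P61S/R100E samples, and the wild type samples bridged them. The change for P61S/R100E minus P61S was -0.19 (SE 0.11, unadjusted p = 0.12, limma). A dimmer Cdkn1a probe gave -0.017 (SE 0.25) for the same comparison and placed wild type replicate 2 highest, at 3.37 against 2.55 in wild type replicate 1, so the probes disagree.

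Cdkn1b, which encodes p27 and holds cells in G1, ran from 0.08 in wild type replicate 2 to 0.62 in P61S/R100E replicate 2, and its groups overlapped. Cdkn2c, which encodes p18 and inhibits Cdk4 and Cdk6, had -2.06, -2.66 and -2.76 in P61S/R100E samples, -2.71 and -2.82 in P61S samples, and -2.20 and -2.51 in wild type samples. Both P61S samples lay below both wild type samples, with a change of -0.41 (SE 0.26, 95% interval -1.03 to 0.21), and P61S/R100E spanned the range.

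**Figure D3:**
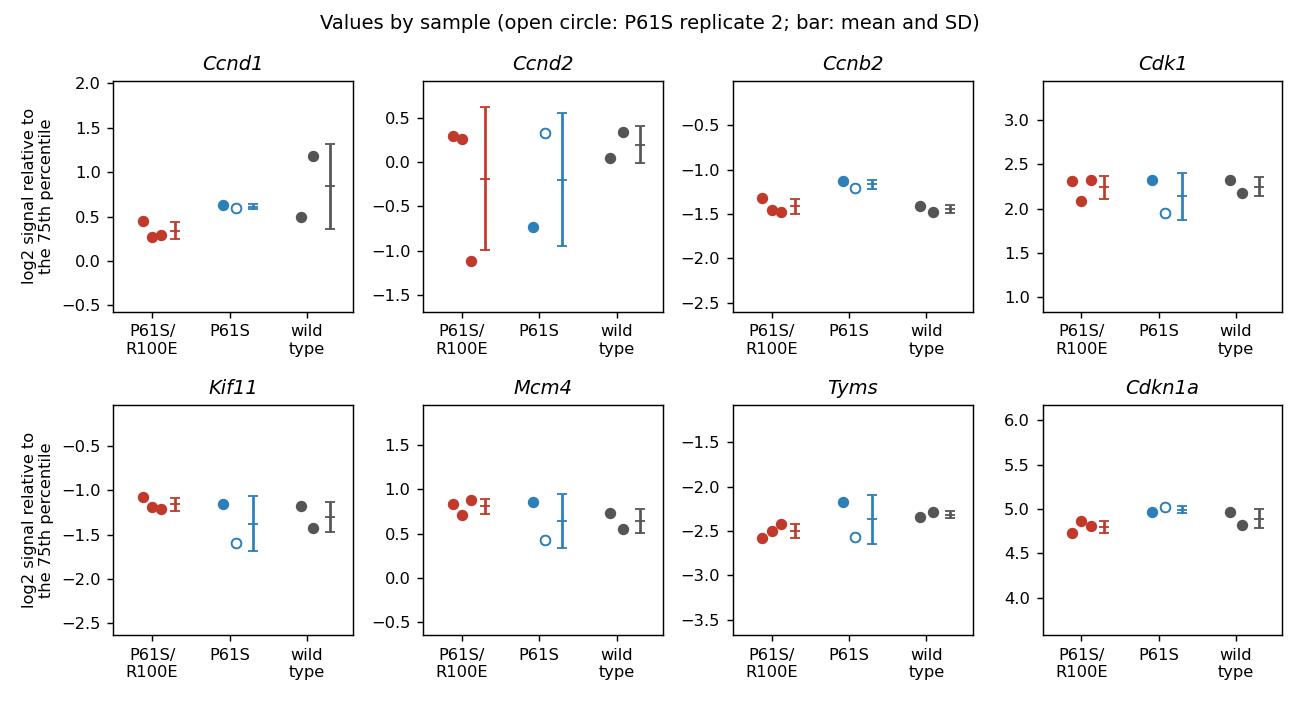
Log2 signal (75th percentile of the array set to 0) for 8 of the genes in P61S/R100E (red, 3 samples), P61S (blue, 2 samples) and wild type (grey, 2 samples), with the mean and SD beside the points and all panels spanning the same number of log2 units. The open circle is P61S replicate 2, which lies below the other P61S sample for Cdk1, Kif11, Mcm4 and Tyms, and above it for Ccnd2.

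None of the 6 replication genes passed the test in any comparison. MCM proteins form the ring-shaped helicase loaded at origins. Mcm7 had 1.70, 1.66 and 1.55 in P61S/R100E samples, 1.48 and 1.34 in P61S samples, and 1.61 and 1.52 in wild type samples. P61S was the lowest group for this gene, with P61S/R100E minus P61S at 0.23 (SE 0.11, unadjusted p = 0.084, limma) and P61S minus wild type at -0.15 (SE 0.12). Mcm2 had -0.28, -0.44 and -0.24 in P61S/R100E samples, -0.19 and -0.57 in P61S samples, and -0.37 and -0.02 in wild type samples, all overlapping. A dimmer Mcm2 probe moved the other way, with P61S replicate 2 higher than the other P61S sample by 0.71, so no direction is given for Mcm2.

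Mcm6 was set apart by wild type replicate 2, at -1.02, while the other 6 samples lay between -2.09 and -1.59. Its change for P61S/R100E minus wild type was -0.44 (SE 0.28, 95% interval -1.13 to 0.25), and that for P61S minus wild type was -0.31 (SE 0.31). Mcm4 had 0.83, 0.72 and 0.88 in P61S/R100E samples, 0.86 and 0.43 in P61S samples, and 0.74 and 0.55 in wild type samples. P61S replicate 2 was its lowest sample, and the same held for Mcm3 (1.23, the other 6 samples being 1.45 to 1.68) and for Pcna, the sliding clamp of DNA polymerase (1.41, the others being 1.58 to 1.70).

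Tyms and Rrm2 supply deoxynucleotides. Tyms encodes thymidylate synthase, the enzyme that the drug in every culture blocks, and had -2.58, -2.50 and -2.42 in P61S/R100E samples, -2.18 and -2.56 in P61S samples, and -2.34 and -2.28 in wild type samples. All P61S/R100E samples lay below both wild type samples, by 0.19 on average (SE 0.14, limma, unadjusted p = 0.244), and the P61S samples spanned the range. Rrm2, a subunit of ribonucleotide reductase, had 3.66, 3.42 and 3.63 in P61S/R100E samples, 3.63 and 3.35 in P61S samples, and 3.59 and 3.57 in wild type samples, with changes between -0.092 and 0.086. A dimmer Rrm2 probe had wider changes. They were 0.13 (SE 0.14) for P61S/R100E minus P61S, -0.16 (SE 0.14) for P61S/R100E minus wild type and -0.29 (SE 0.15) for P61S minus wild type.

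Among the 11 regulators of G2 and mitosis, Ccnb2, a B cyclin that activates Cdk1, had the smallest p. Its values were -1.32, -1.45 and -1.47 in P61S/R100E samples, -1.13 and -1.20 in P61S samples, and -1.41 and -1.47 in wild type samples. Both P61S samples lay above the other 5, including P61S replicate 2. The change was -0.25 (SE 0.10, unadjusted p = 0.0538, limma, adjusted p = 1.00) for P61S/R100E minus P61S and 0.28 (SE 0.11, unadjusted p = 0.0526) for P61S minus wild type, and the P61S samples are shared by both. With P61S arrays 1 and 3 counted separately, Ccnb2 had an unadjusted p of 0.013 for P61S/R100E with P61S and 0.015 for P61S with wild type, Ccnd1 had 0.033 for P61S/R100E with wild type, and the adjusted test still passed neither.

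The kinase partner Cdk1 had 2.31, 2.09 and 2.32 in P61S/R100E samples, 2.32 and 1.95 in P61S samples, and 2.32 and 2.17 in wild type samples. Its group means were 2.24 ± 0.13 (SD, n = 3) in P61S/R100E, 2.14 ± 0.26 (n = 2) in P61S and 2.25 ± 0.10 (n = 2) in wild type, and the lowest sample was P61S replicate 2. Ccnb1, the other B cyclin, had -1.26, -1.38 and -1.41 in P61S/R100E samples, -1.33 and -1.70 in P61S samples, and -1.33 and -1.36 in wild type samples. Again P61S replicate 2 alone was low, and the remaining 6 samples ran from -1.41 to -1.26.

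The same sample was lowest for Foxm1, a transcription factor of mitotic genes (-1.54, the others being -1.39 to -1.12), Cdc20, an activator of the anaphase-promoting complex (-0.69, others -0.61 to -0.33), and Ube2c, its ubiquitin-conjugating enzyme (-1.001, others -0.84 to -0.63). It was lowest too for Ccna2, cyclin A (-0.60, others -0.32 to -0.08), Birc5, a subunit of the chromosomal passenger complex (-0.65, others -0.52 to 0.07), and Plk1, a mitotic kinase (0.19, others 0.24 to 0.52). Aurkb and Aurka, the aurora kinases, were lowest in P61S/R100E replicate 3 (-4.03) and in wild type replicate 2 (-0.78). Group changes of these genes had 95% intervals that all included 0.

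The promoters of 4 members are given to show where known motifs of cell cycle genes lie in them, in 3 regulators of mitosis (Ccnb2, Cdk1 and Cdc20) and 1 replication gene (Mcm7), picked after their values were seen. The sequences are from RefSeq on GRCr8 and run 5′ to 3′ over 300 bases around the gene's start. Capitals mark TTTGAA (the cell cycle homology region, CHR), CCAAT and GCGGGAA (an E2F motif) on either strand, and no marked motif overlaps another.
Ccnb2, chr8:79981609-79981908, minus strand: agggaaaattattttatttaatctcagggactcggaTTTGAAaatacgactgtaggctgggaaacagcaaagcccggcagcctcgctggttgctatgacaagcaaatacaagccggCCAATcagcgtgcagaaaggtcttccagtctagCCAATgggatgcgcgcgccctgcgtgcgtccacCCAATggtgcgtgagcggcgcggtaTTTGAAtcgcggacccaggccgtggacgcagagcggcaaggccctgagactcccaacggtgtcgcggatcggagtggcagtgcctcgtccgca
Cdk1, chr20:19265043-19265342, plus strand: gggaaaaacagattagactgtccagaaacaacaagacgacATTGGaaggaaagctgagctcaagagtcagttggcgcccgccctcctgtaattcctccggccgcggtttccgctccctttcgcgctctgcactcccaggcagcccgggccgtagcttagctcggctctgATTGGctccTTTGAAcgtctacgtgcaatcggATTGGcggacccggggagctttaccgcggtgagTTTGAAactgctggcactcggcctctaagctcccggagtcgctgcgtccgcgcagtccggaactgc
Cdc20, chr5:137255750-137256049, minus strand: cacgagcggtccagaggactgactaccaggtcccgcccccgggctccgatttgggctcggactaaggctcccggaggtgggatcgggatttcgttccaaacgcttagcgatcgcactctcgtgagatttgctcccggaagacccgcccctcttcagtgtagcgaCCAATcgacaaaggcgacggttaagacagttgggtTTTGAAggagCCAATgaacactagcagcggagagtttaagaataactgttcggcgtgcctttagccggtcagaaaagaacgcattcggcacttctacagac
Mcm7, chr12:22163129-22163428, minus strand: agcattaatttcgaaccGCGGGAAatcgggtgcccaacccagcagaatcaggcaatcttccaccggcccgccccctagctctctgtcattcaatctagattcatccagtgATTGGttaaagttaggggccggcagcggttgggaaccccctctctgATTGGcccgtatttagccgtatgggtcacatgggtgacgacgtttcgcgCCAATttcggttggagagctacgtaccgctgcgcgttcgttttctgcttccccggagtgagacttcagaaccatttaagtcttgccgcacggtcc

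Promoters were found for 25 of the 36 genes. CHR letters were present in 9 of 25 (36%), against 18.1% of 27457 promoters, and 5 of those 9 belonged to the 7 regulators of G2 and mitosis. CCAAT was present in 17 of 25 (68%), against 37.7%, and GCGGGAA in 4 of 25 (16%), against 4.47%. These are matches of letters and do not show binding, and no relation of motifs to the values was tested.

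Most checkpoint, spindle and cytokinesis genes had their lowest value in P61S replicate 2 and no change between groups that passed the test. Kif11, the motor that separates spindle poles, had -1.07, -1.19 and -1.21 in P61S/R100E samples, -1.15 and -1.60 in P61S samples, and -1.18 and -1.42 in wild type samples. P61S replicate 2 was the lowest, and its difference from the other P61S sample, -0.44, was the most negative of the 36 genes. Nusap1, Kif20a and Prc1, which act on spindle microtubules and the midzone, had their lowest value in that sample as well (-0.43, -0.40 and -0.36), as did Bub1, a checkpoint kinase (-0.91), and Tpx2, which activates aurora A (-2.53, beside -2.52 in wild type replicate 1). Cenpf, a kinetochore protein, was instead lowest in P61S/R100E replicate 1, at -3.44, with the other 6 samples between -2.96 and -2.56.

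P61S replicate 2 thus held the lowest of 7 values for 22 of the 36 genes (61.1%), against 7.41% of all 12148 genes. Relative to the averaged P61S arrays 1 and 3, 33 of 36 genes were lower in P61S replicate 2. The members' median difference was -0.32 on the log2 scale, or 1.25-fold lower. Of all 12148 genes, 4866 (40.1%) were lower there, and the median of all genes was 0.042 higher. The medians by role were -0.37 for regulators of G2 and mitosis (11 of 11 lower), -0.37 for the spindle (5 of 5), -0.35 for the checkpoint (2 of 2), -0.34 for replication (6 of 6), -0.33 for nucleotide supply (2 of 2) and -0.13 for G1 genes (6 of 7). The exceptions were Ccnd2, Cdkn1a and Cdkn1b, which were higher by 1.06, 0.051 and 0.13. This is a difference between samples of 1 group, so it is a description with no test. It also coincides with a difference in slide column, since P61S replicate 2 lay in another column than P61S arrays 1 and 3.

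Other scalings were quantile normalization, normexp correction, median centring and the deposited values. Under these, the members' median difference lay between -0.375 and -0.322, with 33 or 34 of 36 lower. The median of all genes was then -0.035, -0.027, -0.013 and 0.015, in that order, so its sign depended on the scaling. Of 12148 genes, 7176 were lower with quantile normalization, 7059 with normexp and 6488 with median centring. With the deposited values 5408 of 11646 were lower. Of 11 genes with a dimmer probe, that probe was also lower in P61S replicate 2 for 9. For P61S/R100E minus P61S the dimmer probe had the sign of the brightest for 8 of 11, the exceptions being E2f1, Foxm1 and Mcm2. In a wider cell cycle list of 81 genes outside the members, 51 of 66 measured genes were lower in P61S replicate 2, with a median of -0.20. In the scaling reported, 40.1% of all genes were lower there. Of the wider list, 35 of 66 (53%) had their lowest value in that sample. Between other samples of 1 group the members' median differences were smaller, at -0.092, -0.014 and 0.018 among the P61S/R100E samples and -0.023 between the wild type samples.

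**Figure D4:**
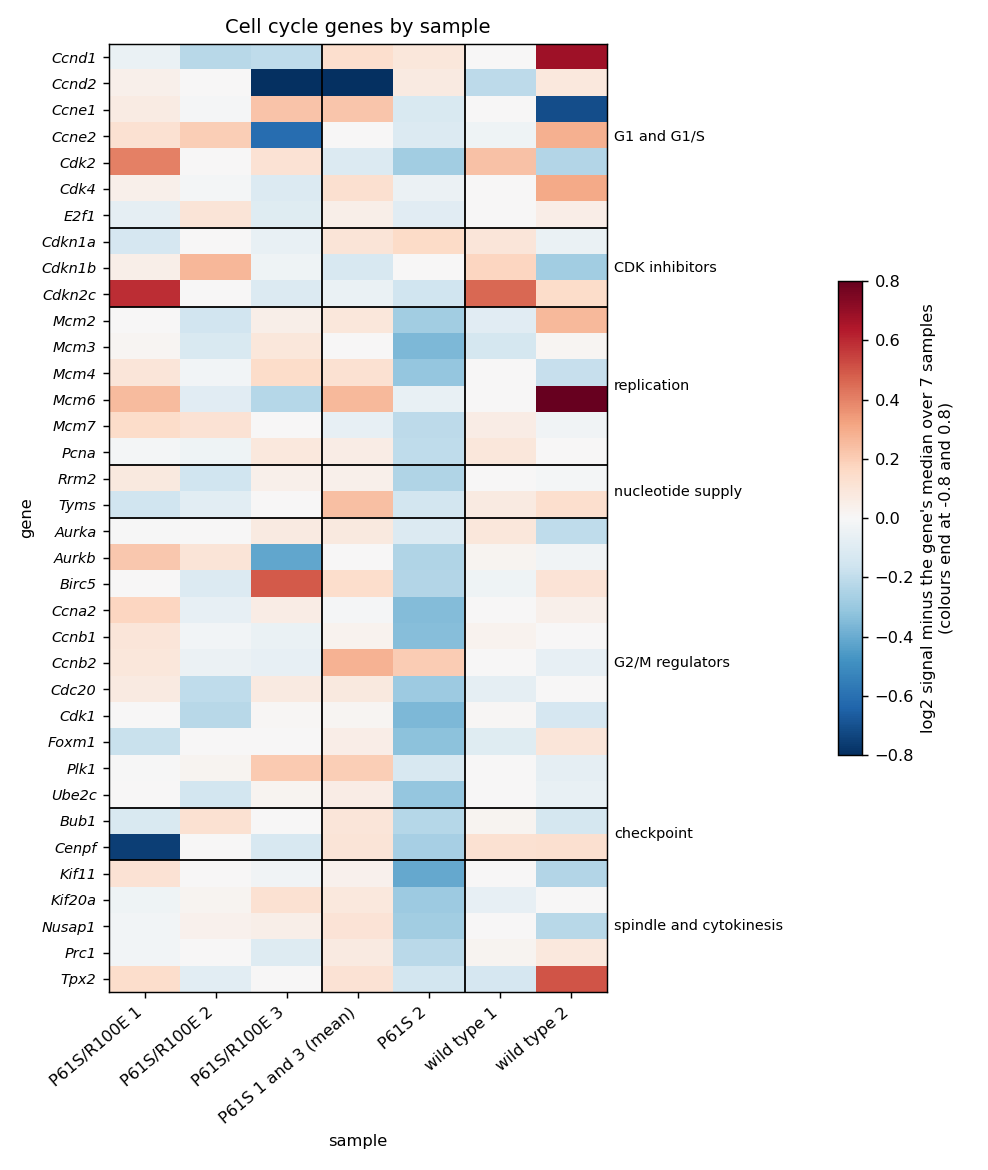
Log2 signal of each of the 36 genes in the 7 samples, as the difference from the gene's median over the samples (blue below, red above), grouped by role. The column of P61S 2 is blue for most genes from replication to cytokinesis, and wild type 2 has the highest values for Ccnd1 and Mcm6.

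Markers of the cultures' cell types did not follow the same course. For the counts below, 40.1% of all genes were lower in P61S replicate 2 than in the averaged P61S sample. In P61S replicate 2 against the averaged P61S sample, pan-neuronal markers were higher for 9 of 9 genes (median 0.12), and their summed signal relative to the 75th percentile was 196 in P61S replicate 2 against 170 in the averaged P61S sample. Over the groups that sum ran from 183 to 197 in P61S/R100E, 170 to 196 in P61S and 181 to 206 in wild type. Schwann cell markers differed by a median of 0.11, with 2 of 10 lower, and their sum ran from 85.4 to 96.6 in P61S/R100E, 83.2 to 88.7 in P61S and 87.6 to 87.8 in wild type. Satellite glia markers differed by 0.14 (1 of 6 lower) with sums of 36.5 to 44.4 in P61S/R100E, 40.7 to 41.9 in P61S and 38.1 to 45.3 in wild type.

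Fibroblast markers differed by 0.036 (3 of 8 lower), with sums of 135 to 166 in P61S/R100E, 131 to 142 in P61S and 142.6 to 142.8 in wild type. Macrophage markers differed by -0.0092 (4 of 7 lower, Mrc1 not above background), with sums of 2.02 to 2.91 in P61S/R100E, 2.16 to 2.35 in P61S and 1.999 to 2.31 in wild type. Endothelial and mural markers differed by 0.48 (1 of 7 lower, Tek not above background), with sums of 1.51 to 1.91 in P61S/R100E, 1.58 to 1.59 in P61S and 1.65 to 1.79 in wild type. They were dim, with a mean log2 value of -3.95 in P61S replicate 2 and -4.45 in the averaged P61S sample. Their sum was 1.578 and 1.587 in these samples, and the macrophage sum 2.16 and 2.35. The Schwann cell, satellite glia and fibroblast sums were higher in P61S replicate 2 (88.7, 41.9 and 142) than in the averaged P61S sample (83.2, 40.7 and 131). P61S replicate 2 had the largest share of spots well above background, 88.8%, and a 75th percentile of 3946. Whether these values bear on the low cell cycle signals was not tested.

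**Figure D5:**
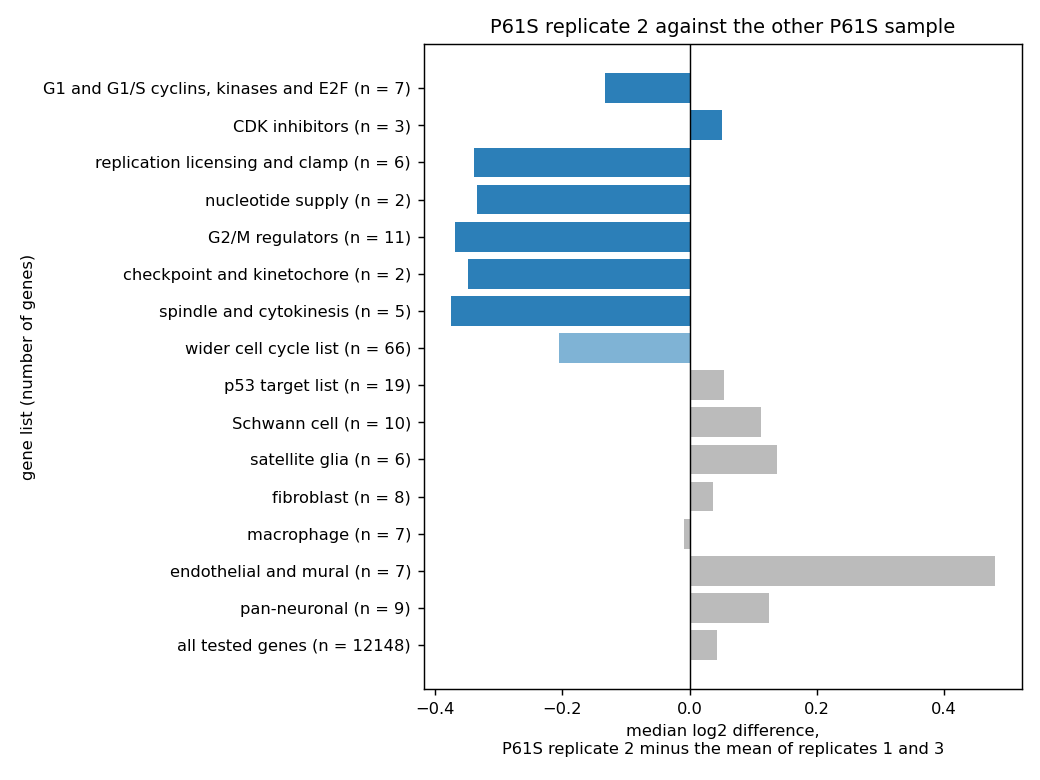
Median log2 difference of P61S replicate 2 minus the mean of P61S replicates 1 and 3, for the roles of the 36 genes (dark blue), the wider cell cycle list (light blue), and p53 targets, cell type markers and all tested genes (grey). All roles except the CDK inhibitors lie below 0. The medians of neuronal, glial, fibroblast and endothelial markers, of p53 targets and of all tested genes (0.042) lie above 0, and that of macrophage markers is -0.0092. The endothelial and mural markers are dim, and their summed signal was not higher in P61S replicate 2 (1.578 against 1.587).

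Of the wider list, 66 of 81 genes could be tested and 0 passed the adjusted test in any comparison. At an unadjusted p under 0.05, 2 of 66 were higher in P61S/R100E than in P61S and none lower, against 123 higher and 206 lower of all 12148 genes, and there were 0 in the other comparisons. Gins2, a subunit of the replicative helicase, had -3.81, -3.51 and -3.03 in P61S/R100E samples, -4.24 and -4.22 in P61S samples, and -3.97 and -3.70 in wild type samples, a change of 0.78 against P61S (SE 0.24, unadjusted p = 0.0164, limma). Cdkn2b, which encodes the inhibitor p15, had a change of 0.24 (SE 0.096). The smallest p among lower values belonged to Ccnd3, the remaining D cyclin, at -0.24 (SE 0.10), and Hmmr, a spindle protein, at -0.28 (SE 0.14). Against wild type, the P61S/R100E values with the smallest p were 0.20 for Rbl2 and 0.17 for Cdkn2b, and -0.40 for Rbl1 and -0.23 for Dut. For P61S minus wild type they were 0.13 for Ccnd3 and 0.14 for Gmnn, and -0.35 for Dut and -0.43 for Rbl1. In P61S minus wild type, 14 of 66 genes were above 0 with a median of -0.088, and in P61S/R100E minus P61S 48 of 66 with a median of 0.074, both including P61S replicate 2.

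Targets of p53, which halts the cycle after DNA damage, were read from a list of 22 genes of which 19 could be tested, and 0 passed the adjusted test. P61S/R100E minus P61S had 15 of 19 below 0 with a median of -0.18, and P61S/R100E minus wild type had 15 of 19 below 0 with a median of -0.24. P61S minus wild type had 13 of 19 below 0 and a median of -0.12. Of all 12148 genes, 6751 were below 0 in P61S/R100E minus P61S, 6936 in P61S/R100E minus wild type and 6757 in P61S minus wild type. Wild type replicate 2 had the highest value of 7 samples for 11 of the 19 genes, where it held the highest value for 34.2% of all genes. Plk3, a stress-induced kinase, had -1.65, -1.56 and -1.69 in P61S/R100E samples, -1.20 and -1.18 in P61S samples, and -1.35 and -1.05 in wild type samples. All 3 P61S/R100E samples were below the other 4, with a change of -0.44 against P61S (SE 0.13, unadjusted p = 0.0122, limma, adjusted p = 1.00) and -0.43 against wild type (unadjusted p = 0.0135, adjusted p = 0.859), both comparisons using the same P61S/R100E samples. Aen, a nuclease induced by p53, was next at -0.22 in each of these comparisons. Values above 0 with the smallest p were 0.15 for Gadd45a and 0.14 for Plk2 in P61S/R100E minus P61S, and 0.33 for Gadd45a and 0.089 for Polk in P61S/R100E minus wild type. In P61S minus wild type, Polk had 0.16 and Gadd45a 0.18, while Rrm2b had -0.60 (SE 0.40) and Sesn2 -0.59 (SE 0.49), and wild type replicate 2 was the highest sample for both Rrm2b and Sesn2.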

How the data were processed

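RNA of the cultures was measured on 8 one-colour Agilent arrays (design 028279, header build rn4). Per the file headers, the authors' scanner export gave background-subtracted, spatially detrended spot intensity values from Feature Extraction 10.7.3.1, protocol GE1_107_Sep09. The authors also deposited a matrix of log2 values for 22018 probes, used as an alternative; its columns correlated at over 0.999 with the scanner signals. Its centring between arrays is not given in the sources used here, and array medians of 9.82 to 10.3 show no common centre.

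Here log2 of the processed signal was taken minus the array's 75th percentile. Spots of a probe were averaged, leaving out scanner outliers. A probe was tested where all arrays of some group rated it well above background (23585 of 30367 probes). Symbols came from RefSeq accessions (GRCr8 table; 17998 probes matched), and the brightest probe stood for a gene. Limma 3.58.1 (R 4.3.3) fitted 3 group means, with p-values adjusted over all tested probes at 0.05 (residual degrees of freedom 4, prior 2.1). Tests were checked on simulated data. Python 3.11.15, pandas 2.3.3 and numpy 2.4.6 made the tables and matplotlib 3.10.9 the figures. The number of arrays limits the precision.

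The planned design had 8 separate arrays. P61S arrays 1 and 3 were averaged because of their small distance, which is below spot noise for probes with 2 spots and above it for those with 10, a decision taken after the results of the 8-array fit had been seen; that fit is an alternative. The genes and lists were chosen with earlier results of these data known. Genes were named by a rule: 23 fixed members (3 of them unmatched), any other member at an unadjusted p under 0.05, and from the wider and p53 lists the 2 smallest p per direction. Other members were described after their values were seen. Same-numbered samples of different groups had correlations of their deviations from group means between -0.198 and 0.167, and not all above 0.1. Samples were therefore not paired by number in the fit reported. Deviations of the 2 wild type arrays mirror each other, so these correlations cannot decide whether the numbers pair samples.

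Alternatives were other background corrections and normalizations, no or a stricter filter on dim probes, the replicate number or slide row as a block, and the slide column as a linear term. Further ones were a variance trend with robust hyperparameters, all probes of a gene, and each array left out.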

Additional observations from a re-analysis of the deposited data

How the results depend on the processing

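Under all 20 alternatives, 0 of 36 genes passed the adjusted test in the 3 comparisons wherever members were tested; the mean over all probes of a gene gave a median only. The number at an unadjusted p under 0.05, 0 in the fit reported, ranged from 0 to 2 for P61S/R100E minus P61S: it was 2 with the slide row as a block or with a variance trend, and 1 with 8 separate arrays, with the replicate block or without P61S replicates 1 and 3. Leaving out 1 array at a time gave 0 to 1. For P61S/R100E minus wild type it was 1 with normexp, quantile normalization, the deposited values, the stricter filter, 8 separate arrays, the slide column or a variance trend, and 0 to 4 with 1 array left out. For P61S minus wild type it was 1 with normexp, quantile normalization, the stricter filter, 8 separate arrays, the slide row or a variance trend, and 0 to 4 with 1 array left out; both values of 4 came without wild type replicate 1.

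Probes passing the adjusted test, 0 in the fit reported, numbered 1 with quantile normalization in each wild type comparison. Without P61S replicates 1 and 3 they numbered 10 for P61S/R100E minus P61S and 9 for P61S minus wild type. With 1 array left out the range was 0 to 34 for P61S/R100E minus wild type and 0 to 16 for P61S minus wild type, the highest without wild type replicate 1; a lone sample is then assumed to vary like the other groups.

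The members' median for P61S/R100E minus P61S was 0.081, from -0.085 (without P61S replicate 2) to 0.091 with 1 array left out, 0.053 with the replicate block, 0.022 with 8 separate arrays, 0.17 with the slide column and 0.22 without P61S replicates 1 and 3. That for P61S/R100E minus wild type was -0.12 with the slide column as a term, against -0.0074. That for P61S minus wild type, -0.11, was -0.051 with 8 separate arrays, -0.28 with the slide column, -0.25 without P61S replicates 1 and 3, and from -0.11 to 0.034 with 1 array left out. The causes were not tested. With the replicate block the adjusted test passed 0 probes in each comparison, and the count at an unadjusted p changed only in P61S/R100E minus P61S, as given above. Of 1200 values of 20 named genes under the alternatives, 103 had the other sign and 90 moved by over 1 SD. Many of the 1200 could not move. A changed filter, a variance trend or leaving out an array of a group outside the comparison left a log2 change as it was. So did the mean over probes for a gene with 1 probe. The counts therefore do not measure how stable the values are.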
